A study of Mus musculus with 28 samples.

Results

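The Wnt ligands and the secreted proteins that modulate them were examined in mouse hair follicle stem cells of 2 ages. Members were the genes whose symbol is that of a Wnt (Wnt1 to Wnt16), a secreted Frizzled-related protein (Sfrp1, Sfrp2, Sfrp4, Sfrp5 and Frzb), a Dickkopf protein (Dkk1 to Dkk4 and Dkkl1) or an R-spondin (Rspo1 to Rspo4), together with Wif1, Notum, Porcn and Wls. Of 37 such genes in the annotation, 36 had at least 1 row in the deposited tables, out of 18274 gene symbols in all, and Rspo2 was the gene with none. The 36 were 19 ligands, 5 Frizzled-related proteins, 5 Dickkopf proteins, 3 R-spondins, the 2 inhibitors Wif1 and Notum, and the 2 secretion factors Porcn and Wls.

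The cells were CD34-positive, α6-integrin-positive cells sorted from trypsin-treated mouse skin and used freshly isolated. The strain label of all samples reads 132-C67BL/6J, and no treatment or genetic change is named. Mice were 6 months old in the young group and 24 months in the old group. Open chromatin was measured by ATAC-seq in 4 young and 4 old samples, the Polycomb mark H3K27me3 by ChIP-seq in 3 and 3, the promoter mark H3K4me3 and RNA polymerase II (Pol2) in 2 and 2 each, and RNA in 3 and 3. The series design calls these biological replicates, and pooling of mice within a sample is neither stated nor excluded by the labels. In sorted bulk samples a lower level in every cell and fewer cells with the signal cannot be told apart.

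Wnt proteins are secreted signals that carry a fatty acid, which the enzyme Porcn attaches, and that reach the cell surface with the carrier Wls. They bind Frizzled receptors and, in the canonical branch, the co-receptors Lrp5 and Lrp6, which leads to stable β-catenin and to transcription with Tcf and Lef factors. Frizzled-related proteins and Wif1 bind Wnts outside the cell, Dkk1, Dkk2 and Dkk4 bind the co-receptors, Notum cleaves off the fatty acid, and R-spondins strengthen the signal through Lgr receptors. In the hair follicle a rise of β-catenin signalling marks the step from rest to growth, and bulge stem cells are known for expressing Wnt inhibitors such as Sfrp1, Dkk3 and Wif1 while they rest. H3K4me3 marks active and poised promoters, H3K27me3 marks promoters held silent by Polycomb, and promoters with both marks are called bivalent, a state typical of CpG-rich promoters of developmental genes.

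Promoter sequences of 4 members are printed below to show CpG-rich and CpG-poor starts, 3 with both marks and 1 with H3K27me3 alone. Each run is the 250 bases before the first listed transcription start in RefSeq on GRCm38.p6, 5′ to 3′ on the strand of the gene, and capitals mark each CpG dinucleotide. Sfrp2 met the rule of a called H3K27me3 promoter peak with a listed ATAC-seq peak near a start, as did Wnt7b, which has no entry among the promoters. The other 3 were chosen after their values were seen. Wnt7a and Wnt2b each have a listed ATAC-seq peak over this stretch, and Wnt8b has H3K27me3 but no H3K4me3 at its promoter.
Sfrp2, chr3:83766071-83766320, plus strand: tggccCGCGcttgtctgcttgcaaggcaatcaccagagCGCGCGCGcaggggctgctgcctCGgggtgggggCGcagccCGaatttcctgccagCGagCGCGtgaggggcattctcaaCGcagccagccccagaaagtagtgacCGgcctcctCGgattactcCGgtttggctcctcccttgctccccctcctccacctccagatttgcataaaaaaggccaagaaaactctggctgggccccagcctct
Wnt2b, chr3:104961710-104961959, minus strand: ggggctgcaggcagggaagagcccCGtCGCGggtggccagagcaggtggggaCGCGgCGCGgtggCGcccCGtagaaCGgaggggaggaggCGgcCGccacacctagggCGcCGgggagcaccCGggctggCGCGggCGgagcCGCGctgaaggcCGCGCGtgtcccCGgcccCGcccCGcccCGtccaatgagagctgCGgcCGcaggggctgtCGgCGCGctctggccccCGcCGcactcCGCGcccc
Wnt7a, chr6:91411354-91411603, minus strand: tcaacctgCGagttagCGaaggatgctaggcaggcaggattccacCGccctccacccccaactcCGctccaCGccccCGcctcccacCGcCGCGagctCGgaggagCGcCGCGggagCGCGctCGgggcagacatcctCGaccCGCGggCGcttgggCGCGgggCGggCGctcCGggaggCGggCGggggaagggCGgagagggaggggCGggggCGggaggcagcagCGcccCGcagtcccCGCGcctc
Wnt8b, chr19:44493222-44493471, plus strand: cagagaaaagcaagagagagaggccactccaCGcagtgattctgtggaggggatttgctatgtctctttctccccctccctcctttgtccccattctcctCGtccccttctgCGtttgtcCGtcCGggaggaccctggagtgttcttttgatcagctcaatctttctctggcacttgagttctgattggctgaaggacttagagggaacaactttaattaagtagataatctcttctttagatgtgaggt
The stretch of Wnt2b held 36 CpG, that of Wnt7a 34, that of Sfrp2 16 and that of Wnt8b 5. The listed ATAC-seq peaks covered 250 of these 250 bases at Wnt2b, 203 at Wnt7a, 120 at Sfrp2 and 0 at Wnt8b.

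Over the window from 250 bases before to 50 after the start, entries were at hand for 25 members. Their median was 26 CpG and 66.3% GC, against 7 CpG and 52.7% GC over 27025 genes with 1 window each. CpG observed over expected had a median of 0.74 in members and 0.39 over all genes. Members with H3K4me3 and H3K27me3 promoter peaks had a median ratio of 0.75 (n = 11), members with H3K4me3 alone 0.91 (n = 6) and members with H3K27me3 alone 0.56 (n = 8). All genes of the same 3 mark states had medians of 0.71, 0.78 and 0.31. The lowest ratios were those of Dkk1 (0.33), Wnt8b (0.35) and Wnt16 (0.40), which carried H3K27me3 alone, and the highest was that of Wnt11 (1.18). The letters CTTTGAT, a core recognised by Tcf and Lef factors, were found on either strand in 1 of 25 member windows (4.0%) and in 3.72% of all genes' windows. TATAAA was in 4 member windows and in 14.2% of all, and the E-box CACGTG in 3 (12.0%) and in 7.24% of all. Wnt11 held both CTTTGAT and TATAAA and Wif1 both TATAAA and CACGTG, and a match describes letters in this window only.

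**Figure D1:**
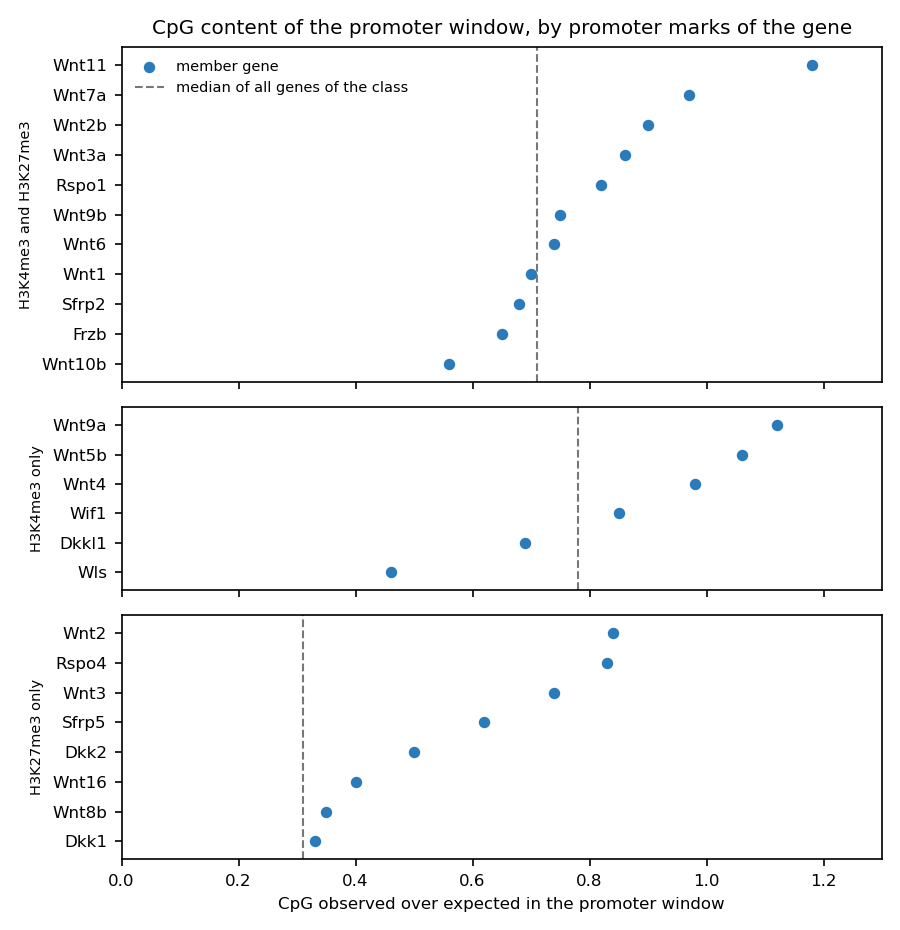
CpG observed over expected (x axis) in the promoter window of each member, in 3 panels by the promoter marks of the gene; points are members and dashed lines the median of all genes of that mark state. Members with H3K27me3 alone reach down to 0.33, and all 8 of them lie above the 0.31 of all genes in that state.

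Most members, 24 of 37, had an H3K27me3 promoter peak. Over the whole series 6209 genes had one, with 18274 gene symbols in any table. Of 37 genes, 16 had promoter peaks of both H3K4me3 and H3K27me3 (peaks annotated within 1 kb of a start): Wnt1, Wnt2b, Wnt3a, Wnt5a, Wnt6, Wnt7a, Wnt7b, Wnt9b, Wnt10b, Wnt11, Sfrp2, Sfrp4, Frzb, Rspo1, Rspo3 and Notum. H3K27me3 alone marked 8 promoters, those of Wnt2, Wnt3, Wnt8b, Wnt16, Sfrp5, Dkk1, Dkk2 and Rspo4. H3K4me3 alone marked 10, those of Wnt4, Wnt5b, Wnt9a, Wnt10a, Sfrp1, Dkk3, Dkkl1, Wif1, Porcn and Wls, so that both secretion factors and the bulge inhibitors Sfrp1, Dkk3 and Wif1 were in this group. Dkk4, Rspo2 and Wnt8a had neither.

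Counted by overlap of the peaks themselves, 17 of the 26 members with an H3K4me3 promoter peak (65.4%) had it overlapped by an H3K27me3 peak, against 15.0% of 12158 genes. The added gene was Wif1, where H3K27me3 peaks flanked the start and covered 10.2% of the H3K4me3 peak. At Wnt7a, Wnt2b, Wnt9b, Wnt10b, Wnt1, Wnt3a, Frzb, Notum, Rspo1 and Sfrp2 the H3K27me3 peak covered 100% of the H3K4me3 peak. At Wnt7b it covered 50.5% and at Wnt6 39.0%. When at least 50% of the peak had to be covered, 15 members (57.7%) and 8.71% of all genes remained bivalent.

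Levels are given as the authors' group means, which are log2 of the normalised read count in a peak, and are compared between genes after subtracting log2 of the peak's length in kb. The ChIP-seq tables hold no value per sample, so these means have no spread. In young cells the highest H3K27me3 level per kb among the 24 members with a promoter peak was that of Wnt1 (8.04), an embryonic patterning signal, and only 0.37% of all genes with an H3K27me3 promoter peak were as high. Sfrp5 (7.28), Wnt3a (7.18), Notum (7.18) and Wnt10b (7.06) came next. Sfrp4 was lowest (6.07), close to the median of all genes (6.09). The order of the genes between these ends rests on small differences without a spread, so neighbours in it are not separated. Members had long domains: the median promoter peak was 9443 bp in members and 4211 bp over all genes. Sfrp5 lay in a domain of 62.5 kb that also reached Golga7b, Wnt3 in 58.0 kb, Wnt7a in 34.2 kb, Rspo1 in 32.5 kb, and Wnt1 in 27.2 kb that also reached Ddn.

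For H3K4me3 in young cells Sfrp1 stood highest per kb among members. This inhibitor, which binds Wnts and Frizzleds, had 9.90, a level reached by 2.29% of all genes, over a promoter peak of 19.4 kb. Wnt7b had 9.51, Wnt10a, a ligand whose loss impairs hair and teeth, 9.51, Wls 9.48 and Dkk3 9.46. The lowest were Rspo1 (7.68), Rspo3 (7.51), Notum (7.43) and Sfrp4 (7.02), and the median of all genes was 8.95. Members as a whole had a median of 8.32.

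**Figure D2:**
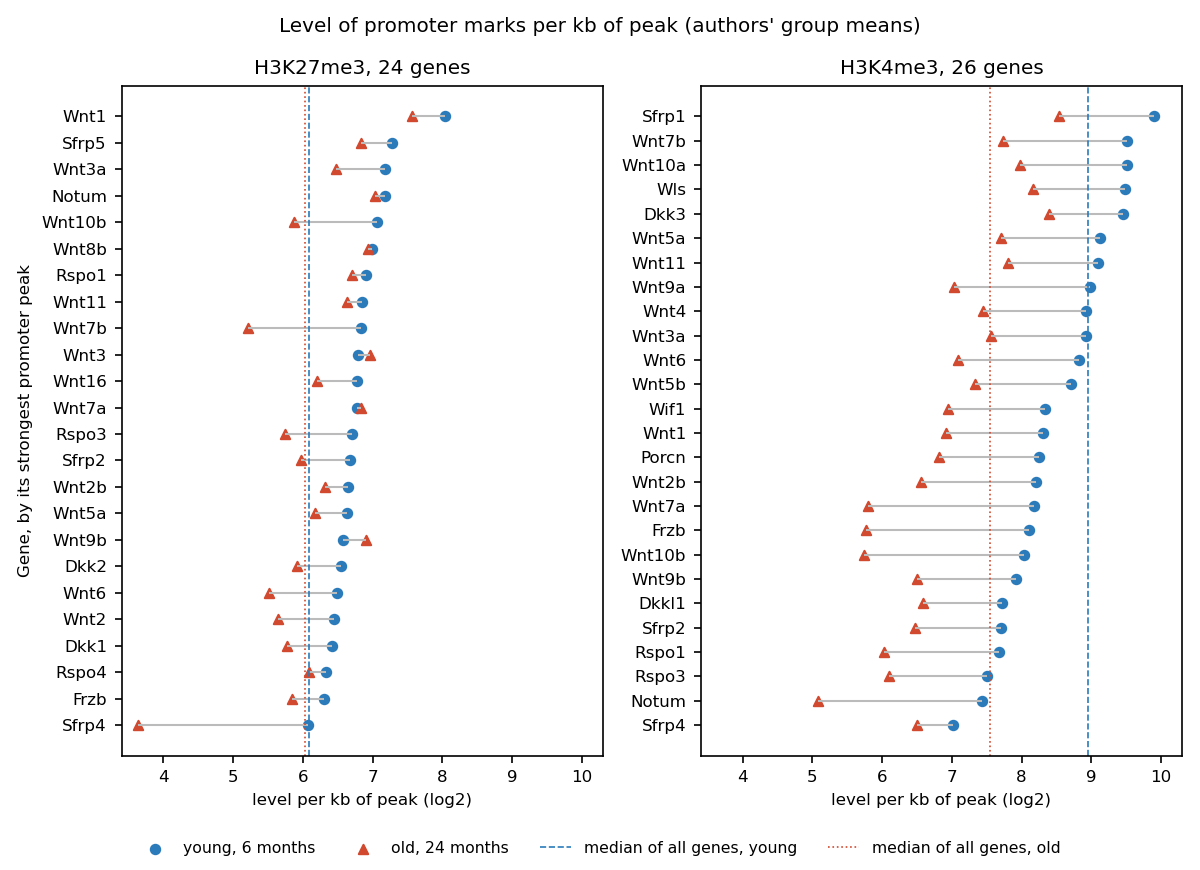
H3K27me3 (left, 24 genes) and H3K4me3 (right, 26 genes) at the strongest promoter peak of each member, as log2 normalised reads per kb of peak (x axis), in young (circles) and old cells (triangles); dashed and dotted lines are the medians of all genes. For H3K27me3 all members but Sfrp4 start above the all-gene median of 6.09, and for H3K4me3 every triangle lies left of its circle.

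The comparison of H3K27me3 asks how Polycomb marking of these promoters differed with age. In the authors' deposited table, 9 of the 24 members with a promoter peak (37.5%) were called lower in old cells at the authors' false discovery rate (FDR) of 0.05 and 0 higher, each gene being taken at its strongest promoter peak. Over all 6209 genes with an H3K27me3 promoter peak 11.2% were called lower and 2.63% higher. The median level of these peaks was 9.56 in members and 8.02 over all genes, so the shares are not matched for level. The 9 were the ligands Wnt1, Wnt2, Wnt3a, Wnt7b, Wnt10b and Wnt16 and the inhibitors Sfrp2, Sfrp4 and Sfrp5. The median log2 fold change, old over young, was -0.46 in members and -0.11 over all genes, and 21 of 24 members were below 0 (20 were below the median of all genes). At an FDR of 0.01, 6 were called, and at 0.1, 12.

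Among ligands, Wnt7b, which is known to act in follicle stem cells and the growing follicle, fell from 8.60 in young to 6.98 in old cells in the authors' deposited table (chr15:85576894-85580313; log2 fold change -1.62, FDR 1.18e-06). Only 1.79% of genes with an H3K27me3 promoter peak were as low. Wnt10b, a canonical ligand of the follicle, fell from 8.45 to 7.27 (-1.18, FDR 0.000889, authors' deposited table). Its neighbour Wnt1, in a far longer domain, fell from 12.81 to 12.34 in the authors' deposited table (-0.46, FDR 0.00653). Wnt2 (-0.81, FDR 0.0194), Wnt3a (-0.70, FDR 0.0019) and Wnt16 (-0.57, FDR 0.0439) had smaller falls in the authors' deposited table. Wnt3a is the classical canonical ligand, and Wnt2 and Wnt16 had no H3K4me3 promoter peak.

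Among the Frizzled-related proteins, Sfrp4 fell from 6.61 to 4.18 in the authors' deposited table (chr13:19623612-19625061; log2 fold change -2.43, FDR 0.00155), over a peak of 1.45 kb. Only 0.58% of genes were as low. Sfrp2 fell from 10.52 to 9.83 (chr3:83757970-83772403; -0.68, FDR 0.000158, authors' deposited table), in a domain that holds the whole stretch of Sfrp2 printed above. Sfrp5 had -0.45 with an FDR of 0.0497 in the authors' deposited table, just inside the threshold. Frzb, the remaining member of this family with a peak, had -0.44 with an FDR of 0.17 and was not called.

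The other roles gave no called fall at the strongest peak. In the authors' deposited table Dkk1 had -0.64 (FDR 0.068) and Dkk2 -0.63 (FDR 0.101), R-spondins ran from -0.95 at Rspo3 (FDR 0.0814) to -0.20 at Rspo1 (FDR 0.36), and Notum had -0.14 (FDR 0.728). Some ligands with long domains were also not called, unlike Wnt1: in the authors' deposited table Wnt8b had -0.06 (FDR 0.879), Wnt7a 0.06 (FDR 0.876), Wnt3 0.18 (FDR 0.535) and Wnt9b 0.33 (FDR 0.168). Wnt2b (-0.32, FDR 0.408), Wnt5a (-0.46, FDR 0.0715), Wnt6 (-0.97, FDR 0.178) and Wnt11 (-0.22, FDR 0.513) completed the list in the authors' deposited table.

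For 3 of these ligands a second promoter peak was called, which raised the count to 12 of 24 members when any promoter peak of a gene counted, against 11.8% of all genes. Wnt5a, a ligand of the non-canonical branch, had -1.31 (FDR 0.00158) at a peak over its start in the authors' deposited table, next to the stronger peak that was not called. Wnt11, also non-canonical, had -0.64 (FDR 0.0478) in the authors' deposited table. At Wnt6 a narrow peak 0.428 kb from a start (chr1:74769994-74771464) went from 6.36 in young to 0.60 in old cells in the authors' deposited table, with a log2 fold change of -5.76 and an FDR of 2.03e-08. The old level is near the table's lowest value of -0.12, so the size of that fold is no measured bound. This narrow peak lies inside the Wnt6 H3K4me3 promoter peak (chr1:74769978-74773746). The stronger Wnt6 peak, not called, lies elsewhere (chr1:74782778-74783994) and does not overlap that H3K4me3 peak.

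Outside promoters within 1 kb, 152 H3K27me3 peaks were assigned to 21 members, of which 1 was called lower and 3 higher, against 1.67% and 2.6% of all such peaks. In the authors' deposited table the rises were at Wnt11 36.8 kb from the start (3.10, FDR 0.00976), in an intron of Wnt7a (0.69, FDR 0.0438) and 6.73 kb from Wnt8b (0.74, FDR 0.0419). The fall was 239 kb from Wnt5a (-0.93, FDR 0.0256, authors' deposited table). The first of these peaks was weak in young cells, with a level of 3.07 against 6.17 in old cells in the authors' deposited table.

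**Figure D3:**
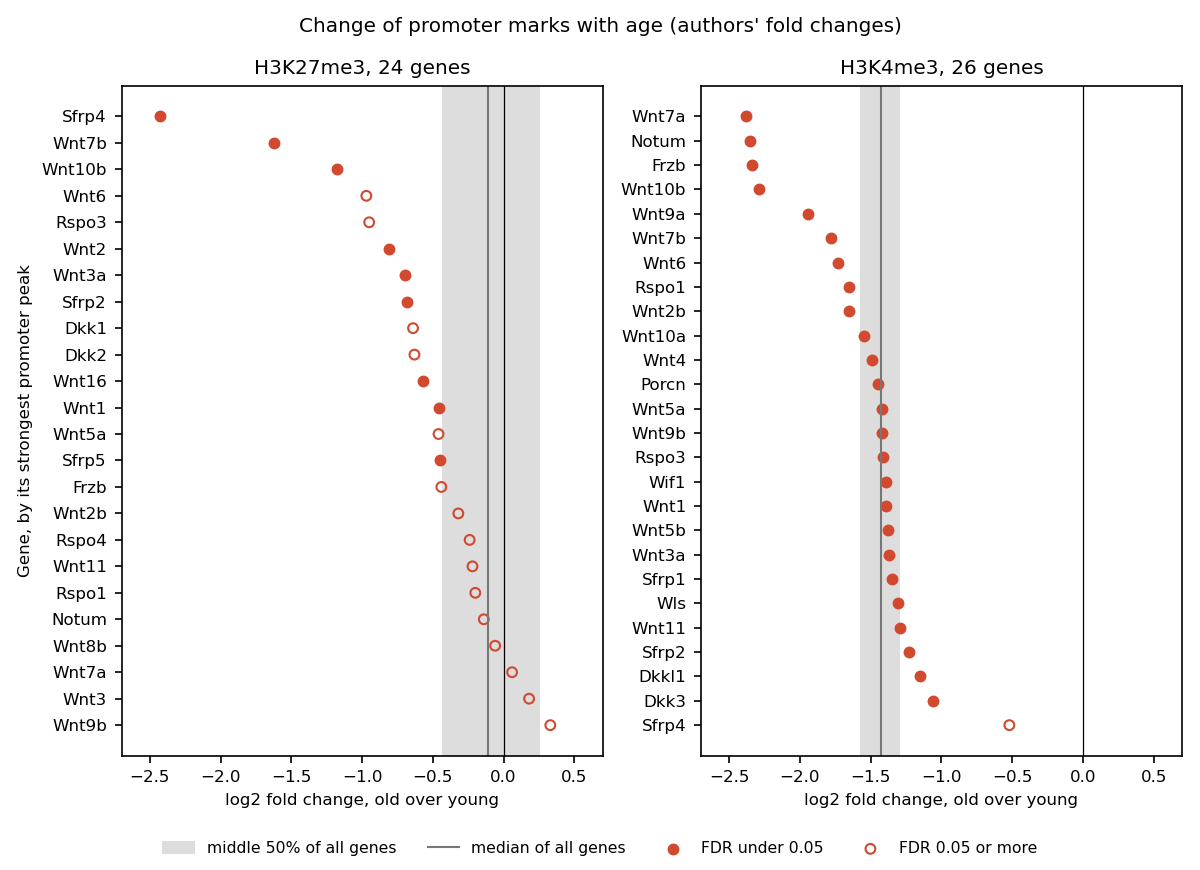
Log2 fold change, old over young (x axis), of H3K27me3 (left) and H3K4me3 (right) at the strongest promoter peak of each member; filled points have an FDR under 0.05, the grey band holds the middle 50% of all genes with a promoter peak and the grey line is their median. For H3K27me3 the 9 filled points lie between -2.43 and -0.45, and for H3K4me3 most points lie in or near the grey band around -1.43.

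H3K4me3 was lower in old cells at nearly every member, as at nearly every gene. Of the 26 members with an H3K4me3 promoter peak, 25 passed as lower in the authors' deposited table and 0 as higher, against 96.9% and 0.0329% of 12158 genes. The median log2 fold change was -1.42 in members and -1.43 over all genes, and after subtracting that median 12 members were lower and 14 were not. The count of falls therefore describes the whole table and is no result about Wnt genes. The cause of the general fall was not tested.

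A few members lay far below that median. This distance was not tested: the FDRs are for a difference from 0, which 96.9% of all genes passed, and the means have no spread. Wnt7a had the lowest value in the authors' deposited table, from 8.44 to 6.06 (chr6:91410777-91411970; -2.38, FDR 1.98e-07), and 1.67% of all genes were as low. Notum (-2.35, FDR 1.27e-08), Frzb (-2.34, FDR 6.07e-08) and Wnt10b (-2.29, FDR 1.76e-07) were next in the authors' deposited table, at shares of 1.74%, 1.78% and 1.95% of genes. These 4 promoters were below the median of all genes in young H3K4me3 level per kb and had an H3K27me3 peak over the whole H3K4me3 peak. Of these 4, H3K27me3 was called lower at Wnt10b alone. Wnt1, Wnt2b, Wnt3a, Wnt9b, Rspo1 and Sfrp2 also had the low young level and the full cover. Their H3K4me3 log2 fold changes ran from -1.65 to -1.23 in the authors' deposited table, so these traits do not set the 4 apart.

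Wnt9a (-1.94), Wnt7b (-1.78) and Wnt6 (-1.73) followed in the authors' deposited table, then Wnt2b and Rspo1 (both -1.65, with 16.3% of all genes as low). The members from Wnt10a (-1.55) to Sfrp1 (-1.35), Wls (-1.31) and Wnt11 (-1.29) lay close to the general median in the authors' deposited table. At the upper end Sfrp2 had -1.23 (FDR 0.000365), Dkkl1 -1.15 (FDR 0.0174) and Dkk3 -1.06 (FDR 0.00106) in the authors' deposited table. Sfrp4 was the member not called, with 7.58 in young and 7.06 in old cells in the authors' deposited table (-0.52, FDR 0.261). It was also the member with the largest H3K27me3 fall at its strongest promoter peak, and 98.5% of all genes had a fold change as low as its H3K4me3 value or lower. These 2 values are from different sites: the H3K4me3 peak (chr13:19621018-19622491) does not overlap that H3K27me3 peak (chr13:19623612-19625061). The H3K27me3 that covered 62.3% of the Sfrp4 H3K4me3 peak lay in a peak not assigned to Sfrp4, and its change is not given here.

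The median H3K4me3 log2 fold change was -1.42 in the 17 bivalent members and -1.38 in the 9 others, with ranges of -2.38 to -0.52 and -1.94 to -1.06. Over all genes the medians were -1.50 and -1.42. The difference between bivalent and other members was not tested.

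ATAC-seq gave the only values per library. The deposited table lists 7849 peaks that already differed between the ages (no listed -log10 p-value is below 2.00 and no log2 ratio below 0.50 in size), so adjusted p-values over it rank listed peaks and are no independent evidence of a difference. It held 22 peaks at 13 members: Wnt2b, Wnt4, Wnt5a, Wnt5b, Wnt7a, Wnt7b, Wnt8a, Wnt11, Sfrp1, Sfrp2, Dkk2, Dkk3 and Rspo3. With equal library sizes, the scale of the authors' own ratio, 14 peaks had a lower mean in old cells and 8 a higher one. After TMM scaling, which raises the log2 fold changes of listed peaks by 0.59 in the median, 8 were lower and 14 higher. TMM was computed from the listed peaks alone, so it recentres a fall that most of them share.

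Called by edgeR at an adjusted p of 0.05 with equal library sizes were 5 peaks lower (46.4% of all listed peaks) and 2 higher (5.43% of all). With TMM scaling 0 were called lower and 8 higher, against 0.701% and 13.9% of all listed peaks. All 8 of them were among the 8 with higher means at equal library sizes. The share of peaks with a higher mean was 36.4% in members and 14.1% over all listed peaks with equal library sizes. Young and old counts did not overlap at 8 of 22 peaks (36.4%), near the 40.7% of all listed peaks. The calls moved with single libraries, from 2 to 7 lower and from 0 to 4 higher when each library in turn was left out.

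The lower peaks were mostly those of ligands. All 11 peaks of ligands other than Wnt5b had lower means in old cells with equal library sizes, a split made after the values were seen, and 7 of the 11 with TMM scaling. Over all listed peaks, 6745 of 7849 had lower means with equal library sizes and 4744 with TMM scaling. The peak over the Wnt2b start, which holds the whole Wnt2b stretch printed above (chr3:104961251-104962650), had 1188, 1527, 1290 and 1129 reads in the young and 872, 783, 962 and 955 in the old libraries. The groups did not overlap, with means of 1280 ± 175 and 893 ± 84.0 (SD, n = 4 each), a log2 fold change of -0.52 and an edgeR adjusted p of 0.0223, or 0.07 on the log2 scale with TMM. Without young replicate 2 the edgeR adjusted p was 0.0506. Wnt2b is a canonical ligand related to Wnt2, and its direction at this peak turned with the scaling.

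The peak 17 kb before Wnt11 had 528, 420, 529 and 450 reads in young and 380, 283, 222 and 301 in old libraries, again without overlap (log2 fold change -0.70, edgeR adjusted p 0.0256; -0.12 with TMM). Without young replicate 3 or old replicate 3 its edgeR adjusted p was 0.053 and 0.0606. A peak in intron 1 of Nme5, assigned to Wnt8a, had 241, 251, 190 and 322 reads in young and 185, 128, 114 and 70 in old libraries (log2 fold change -1.01, edgeR adjusted p 0.0228; 0.0511 without old replicate 3). With equal library sizes this was the largest drop among the 22 peaks, and it kept its sign with TMM (-0.45), but Wnt8a itself carried no promoter mark. The intron 1 peak of Wnt4, a ligand of kidney and reproductive tract development, had 70, 144, 148 and 114 reads in young and 71, 45, 83 and 59 in old libraries. Its groups overlapped through young replicate 1, and its log2 fold change of -0.88 (edgeR adjusted p 0.0461; -0.29 with TMM) was called in only 1 of the 8 fits that left out a library, with edgeR adjusted p from 0.0358 to 0.101.

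The promoter peaks of Wnt7a and Wnt7b were lower in mean but not called. At Wnt7a the young libraries had 116, 218, 199 and 191 reads and the old ones 130, 127, 129 and 65, so that young replicate 1 lay among the old values. The log2 fold change was -0.68 with an edgeR adjusted p of 0.0642, and 0.0467 without young replicate 1. At the Wnt7b promoter the young libraries had 258, 258, 185 and 200 reads and the old ones 127, 233, 71 and 145, and old replicate 2 lay among the young values (log2 fold change -0.65, edgeR adjusted p 0.0728; 0.0355 without old replicate 2). A second Wnt7b peak in intron 3 of the gene had 183, 236, 174 and 251 reads in young and 151, 134, 183 and 109 in old libraries (-0.55, edgeR adjusted p 0.076; 0.04 on the log2 scale with TMM). With TMM scaling the Wnt7a and Wnt7b promoters had log2 fold changes of -0.11 and -0.06.

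Wnt5a had 3 listed peaks, all lower in mean and none called. The one 1.98 kb from its start had 319, 325, 282 and 348 reads in young and 226, 186, 247 and 240 in old libraries, which did not overlap (log2 fold change -0.50, edgeR adjusted p 0.062; 0.10 on the log2 scale with TMM). Peaks 230 kb and 237 kb beyond the start had -0.78 and -0.71 with edgeR adjusted p of 0.0558 and 0.117, and both overlapped. The first of these was called without young replicate 1 (edgeR adjusted p 0.0376). The second Wnt2b peak, 38.9 kb before the start, had -0.55 (edgeR adjusted p 0.0773) and also overlapped.

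Wnt5b, the other non-canonical Wnt5 ligand, went the opposite way at all 3 of its peaks, under both scalings. The peak in intron 1 of the neighbouring gene Erc1, 41.7 kb before Wnt5b, had 131, 95, 139 and 131 reads in young and 251, 280, 181 and 192 in old libraries, without overlap. Its means were 124 ± 19.7 and 226 ± 47.3 (SD, n = 4 each), with a log2 fold change of 0.87 and an edgeR adjusted p of 0.0267 (0.0509 without young replicate 2 and 0.0564 without old replicate 2). The peak 2.79 kb from a Wnt5b start had 347, 370, 455 and 532 reads in young and 829, 562, 539 and 543 in old libraries. These groups did not overlap either (0.54, edgeR adjusted p 0.0412), but only 2 of the 8 fits that left out a library called it, and without old replicate 1 the log2 fold change was 0.36 (edgeR adjusted p 0.125). The peak in intron 2 of Erc1 had 163, 93, 125 and 168 reads in young and 230, 229, 265 and 87 in old libraries, and overlapped through old replicate 4 (0.56, edgeR adjusted p 0.11; 0.045 without that library). The table assigns the Erc1 peaks to Wnt5b by the nearest start, and which gene they serve was not measured.

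**Figure D4:**
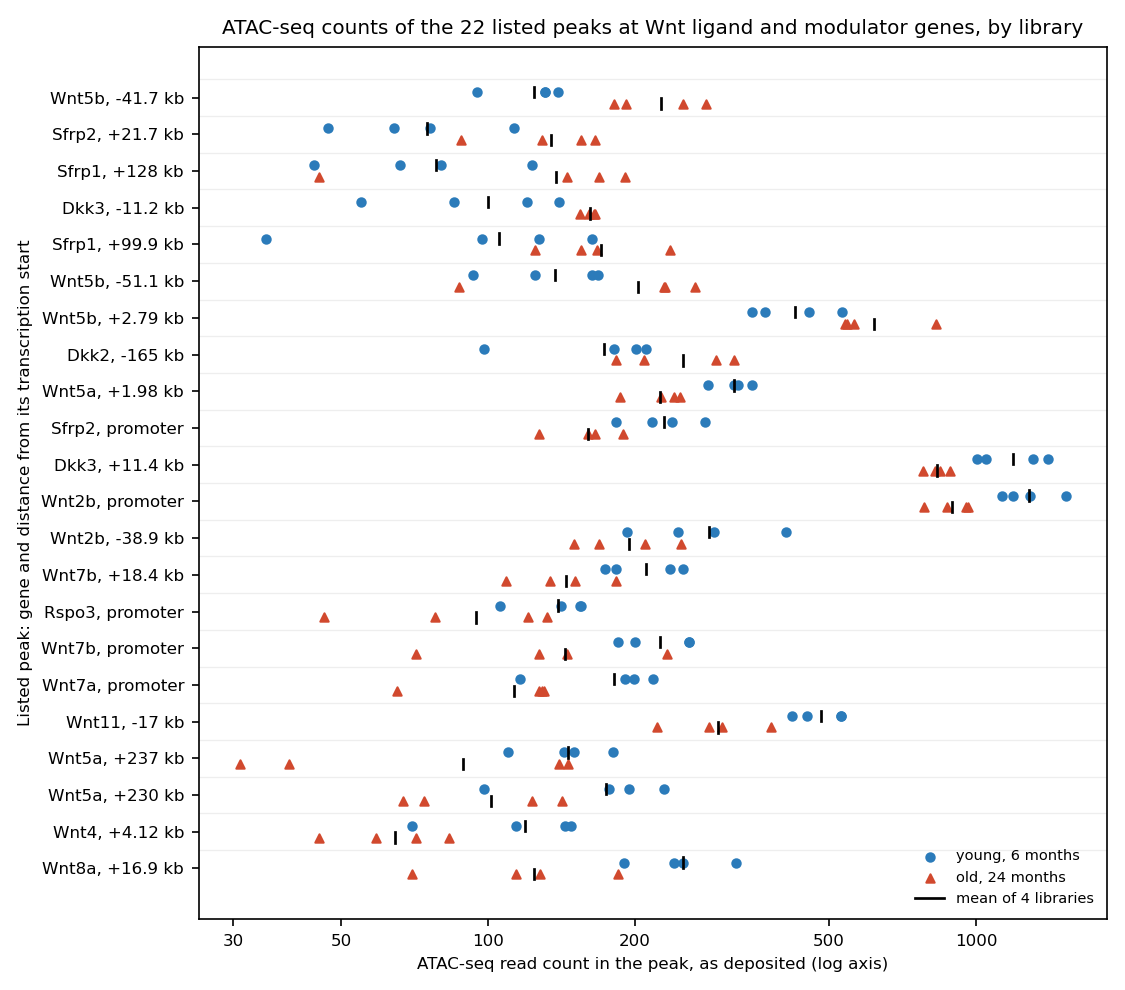
Read counts (x axis, log scale) of the 22 listed ATAC-seq peaks at members in each of 4 young (circles) and 4 old libraries (triangles), ordered by log2 fold change with equal library sizes; bars are group means. The rows at the top, higher in old cells, belong to Wnt5b, Sfrp1, Sfrp2, Dkk3 and Dkk2, and the 5 promoter peaks all lie below these 8 rows, where old means are below young means.

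Of the 8 peaks at Frizzled-related, Dickkopf and R-spondin genes, 5 had higher means in old cells with equal library sizes and 7 with TMM scaling. All 5 lay outside promoters. Sfrp1 had 97, 35, 127 and 163 reads in young and 155, 167, 236 and 125 in old libraries at a peak 99.9 kb from its start (log2 fold change 0.69, edgeR adjusted p 0.092). At 128 kb it had 123, 66, 44 and 80 in young and 191, 145, 169 and 45 in old libraries (0.81, edgeR adjusted p 0.0793). The second pair of groups overlapped through old replicate 4, without which the edgeR adjusted p was 0.037.

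Sfrp2 moved in opposite directions at its 2 peaks with equal library sizes. Its promoter peak (chr3:83766201-83766750) had 183, 278, 217 and 238 reads in young and 160, 189, 166 and 127 in old libraries, with an overlap between young replicate 1 and old replicate 2 (log2 fold change -0.51, edgeR adjusted p 0.0787; 0.07 on the log2 scale with TMM). A peak 21.7 kb into the region after the start had 47, 113, 64 and 76 in young and 129, 166, 88 and 155 in old libraries (0.84, edgeR adjusted p 0.0506; 0.0401 without young replicate 2). That peak, in an intron of transcript uc008ppm.1, was assigned to Sfrp2 by the nearest start. It overlapped an H3K27me3 peak not assigned to Sfrp2 and no H3K4me3 peak. The difference between the Sfrp2 peaks was not tested.

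Dkk3, a Dickkopf-related protein of the bulge, also had 1 peak of each kind. The peak in its intron 4 had 1007, 1407, 1309 and 1048 reads in young and 779, 884, 823 and 845 in old libraries, without overlap (log2 fold change -0.52, edgeR adjusted p 0.0245; 0.08 on the log2 scale with TMM), and lost the call without young replicate 2 (edgeR adjusted p 0.0535) or young replicate 3 (0.0532). The peak 11.2 kb before the start had 140, 55, 120 and 85 in young and 166, 161, 154 and 165 in old libraries, also without overlap (0.69, edgeR adjusted p 0.0651; 0.0487 without young replicate 1). Dkk2 had 201, 181, 98 and 211 reads in young and 293, 183, 209 and 319 in old libraries at a peak 165 kb before its start, with overlap (0.54, edgeR adjusted p 0.0892). That peak lies in an intron of transcript uc008rjv.1. Rspo3, the R-spondin with a listed peak, had 154, 106, 155 and 141 in young and 132, 121, 78 and 46 in old libraries at its promoter (-0.56, edgeR adjusted p 0.128; -0.01 with TMM), and the groups overlapped.

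The marks under these peaks differed by place. All 5 listed promoter peaks, at Wnt2b, Wnt7a, Wnt7b, Sfrp2 and Rspo3, overlapped both an H3K4me3 and an H3K27me3 peak, and all 5 had lower means in old cells with equal library sizes, 1 of them called. With TMM scaling 3 of the 5 were lower and 0 called. Over all listed promoter peaks 696 of 738 had lower means with equal library sizes, and 421 were called lower. With TMM scaling 425 of the 738 were lower and 3 were called lower. Of the 8 peaks with higher means, all outside promoters, 0 overlapped an H3K4me3 peak and 1, at Sfrp2, overlapped an H3K27me3 peak. Most lower peaks outside promoters overlapped neither mark either, namely those at Wnt8a, Wnt11, Dkk3 intron 4, Wnt7b intron 3, distal Wnt2b and distal Wnt5a. The exceptions were Wnt4 intron 1, with H3K4me3, and the Wnt5a peak 1.98 kb from the start, with both marks. Such overlaps were not counted over all listed peaks.

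For the 3 promoters with a listed ATAC-seq peak where H3K27me3 or ATAC-seq was called, the measures can be set side by side. Wnt7b had log2 fold changes of -1.62 for H3K27me3 and -1.78 for H3K4me3 in the authors' deposited tables, and -0.65 for ATAC-seq reads with equal library sizes. Sfrp2 had -0.68, -1.23 and -0.51 in the same order (the first 2 from the authors' deposited tables), and Wnt2b -0.32, -1.65 and -0.52. All of these values were below 0 with equal library sizes, although H3K27me3 at Wnt2b and ATAC-seq at Wnt7b and Sfrp2 were not called. With TMM scaling the ATAC-seq values were -0.06, 0.07 and 0.07. The 3 promoters were picked by such calls, so their shared direction is no result about them. H3K4me3 was below 0 at 99.6% of all genes with a promoter peak. Of all listed ATAC-seq promoter peaks, 696 of 738 had lower means with equal library sizes.

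Members that neighbour each other in the genome shared part of their state. Wnt10b and Wnt1, 11.7 kb apart on chromosome 15, were both bivalent and both called lower in H3K27me3. Wnt9b and Wnt3 overlap on chromosome 11 (gap of -1.1 kb), lay under adjoining H3K27me3 domains of 26.3 and 58.0 kb, and both had a value above 0 in the authors' deposited table (0.33 and 0.18), neither called. Wnt3a and Wnt9a, 16.1 kb apart, and Wnt6 and Wnt10a, 6.7 kb apart, differed: the first of each pair was bivalent and the second had H3K4me3 alone. H3K4me3 levels per kb in young cells were 8.93 and 8.98 in the first of these pairs and 8.82 and 9.51 in the second.

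Pol2 was found at few members. Promoter peaks were present at Sfrp1 and Wls, and Dkk3 had a peak in an intron. In the authors' deposited table Sfrp1 went from 10.08 to 7.85 (-2.22, FDR 0.0101) and Wls from 10.21 to 7.94 (-2.27, FDR 0.00605). Both were called lower, as were 85.5% of 3333 genes with a Pol2 promoter peak, and 0% of genes were called higher. The median of all genes was -2.36, so both members lay slightly above it. Dkk3 had -0.99 in its intron (FDR 0.224, authors' deposited table) and was not called. Promoters of the 24 Polycomb-marked members had 0 Pol2 peaks, and the share over all genes with an H3K27me3 promoter peak was not counted.

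In RNA, 0 of the 37 genes were among the 597 genes of the deposited table, which lists genes with an adjusted p of up to 0.1. Of the listed genes 56.8% passed 0.05. Absence from that list does not show that a gene was unchanged, and RNA levels of members are not analysed here.

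Other genes of the pathway were counted from fixed lists. Of 22 receptor genes 19 had an H3K4me3 promoter peak and 19 were called lower, 8 of 10 with a Pol2 promoter peak were called lower, and H3K27me3 was found at 2 promoters with 1 called lower, in the authors' deposited tables. Of 21 transduction genes the counts were 19 of 19 for H3K4me3, 5 of 9 for Pol2 and 1 of 1 for H3K27me3 (Lef1, -0.43, FDR 0.00747, authors' deposited table). Of 10 target genes they were 8 of 8, 1 of 1 and 2 of 5. Over all genes with such a promoter peak, 96.9% were called lower for H3K4me3, 85.5% for Pol2 and 11.2% for H3K27me3. H3K27me3 at the promoter was present at 24 of 37 members, 2 of 22 receptors, 1 of 21 transduction genes and 5 of 10 target genes. Its median log2 fold changes in the authors' deposited table were -0.46, -0.74, -0.43 and -0.47 in the same order. A median below 0 was thus not particular to members. The other medians rest on 2, 1 and 5 genes, and no difference between lists was tested. Listed ATAC-seq peaks had lower means at 18 of 21 receptor peaks, 31 of 31 transduction peaks and 6 of 7 target peaks with equal library sizes, with 13, 17 and 3 called lower by edgeR, against 46.4% of all listed peaks, and 1, 0 and 0 called higher. With TMM scaling 0 in each list were called lower and 3, 0 and 1 higher, against 0.701% and 13.9% of all listed peaks. With equal library sizes 5.43% of all listed peaks were called higher. The receptor Ror2, a partner of Wnt5a, was in the RNA table with a log2 fold change of 0.54 and an adjusted p of 0.0996, above the threshold, in the authors' deposited table.

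Library and marker values bear on all of these comparisons. Counts over the listed ATAC-seq peaks summed to 2456110 to 2773284 in young and 1572998 to 1946804 in old libraries, and these sums are not sequencing depths. All 13 follicle stem cell markers, Cd34 and Itga6 among them, had an H3K4me3 promoter peak and 12 a Pol2 promoter peak. Markers of other cells had an H3K4me3 promoter peak at 6 of 12 fibroblast and dermal papilla genes, 1 of 12 immune genes, 4 of 11 endothelial, smooth muscle and glial genes, 2 of 7 melanocyte genes and 6 of 11 interfollicular and sebaceous genes. They had a Pol2 promoter peak at 0, 0, 1, 0 and 0 of these. H3K27me3 promoter peaks were at 8 fibroblast and dermal papilla genes (median log2 fold change -0.57, 2 called lower), 6 immune genes (0.37, 1 called higher), 4 endothelial, smooth muscle and glial genes (-0.16, 0 called) and 3 interfollicular and sebaceous genes (-0.79, 2 called lower) in the authors' deposited table. The melanocyte list had 1 such gene (-0.29, not called) and the follicle stem cell list 2 (-0.32, 1 called lower) in the authors' deposited table. Over all genes with an H3K27me3 promoter peak the median was -0.11, with 11.2% called lower and 2.63% called higher. In RNA 1 of the immune genes was called lower in old cells and 0 of the other lists. The part of other cells in the results was not tested.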

How the data were processed

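Alignment used STAR 2.5.2b on GRCm38.p5 with featureCounts and DESeq2 1.22.2 (RNA), BWA 0.7.12 on GRCm38 (ATAC-seq), and BWA 0.7.15, MACS2 2.2.7.1 and DiffBind 2.14.0 (ChIP-seq), per the submitters' processing notes. The ATAC-seq table holds whole-number counts per peak and library, −log10 p-values and log2 ratios, as its headers give them and the authors deposited it. Scaling of these counts before deposit was not given in the sources used here. Tables of ChIP-seq peaks as deposited hold log2 mean levels, a log2 difference (young minus old, turned here to old over young), p-values and FDRs, under a DiffBind normalisation not given in the sources used here. RNA values as deposited are a mean normalised signal, a log2 fold change, a Wald score and p-values, per the file headers. RNA and ChIP-seq depth is unknown.

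ATAC-seq counts of all 7849 listed peaks were compared with edgeR 4.0.16 in R 4.3.3 (quasi-likelihood test, two-sided, equal library sizes, Benjamini-Hochberg adjustment over all listed peaks, called at 0.05). The low-count filter removed 0 peaks. On simulated counts for these peaks, 47% of changes of 1 on the log2 scale and 100% of changes of 2 were recovered, with 5 false calls (3.29% of calls). Unlike the listed peaks, simulated ones had undergone no selection by age. Few simulated peaks changed, up and down alike, and library totals were near equal, so the simulation cannot test the choice of library scale. No 2 libraries of a group agreed within sampling noise (lowest chi-square per degree of freedom 10.8). P-values measure only the spread between these samples.

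A gene was represented in each ChIP-seq table by the promoter peak (within 1 kb) with the highest mean level, called at the authors' FDR of 0.05. Every member is accounted for by role. Full values were to be given for members called in a ChIP-seq table or with a listed ATAC-seq peak or RNA row, up to 30 genes. Promoter sequences came from the RefSeq table of GRCm38.p6, with 25 members matched, and were to be shown for up to 5 members with a called H3K27me3 promoter peak and a listed ATAC-seq peak within 3 kb of a start. Members, lists and rules were chosen with earlier results of these data known. Python 3.11.15, pandas 2.3.3, numpy 2.4.6 and matplotlib 3.10.9 did the rest, and DESeq2 1.42.0 served as an alternative.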

Additional observations from a re-analysis of the deposited data

Results flagged for a closer look

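In 44 groups of 4 ATAC-seq counts (22 peaks, 2 ages), 2 held a library far from the other 3 of its group, where chance alone gives about 1 in 20. At the peak 2.79 kb from a Wnt5b start, old replicate 1 had 829 reads against 539 to 562 in the other old libraries, a gap of 0.921 of the whole range. At the Wnt7a promoter peak, old replicate 4 had 65 reads against 127 to 130 in the other old libraries, a gap of 0.954 of the range. Without these libraries the log2 fold changes were 0.36 at Wnt5b and -0.49 at Wnt7a, in the same direction as with all 8 libraries.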

How the results depend on the processing

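ATAC-seq calls at members moved with the scaling, the threshold and the block. Called lower and higher were 5 and 2 with equal library sizes, 0 and 8 with TMM, with column totals as library sizes and with DESeq2's own size factors, 8 and 4 with DESeq2 at size factors of 1, 0 and 0 at an FDR of 0.01, 12 and 7 at 0.1, and 1 and 0 among promoter peaks only. Leaving out each library gave 2 to 7 lower and 0 to 4 higher. With the replicate number as a block, 0 were called lower and 0 higher. The numbers only name samples: deviations of same-numbered libraries correlated at -0.03, -0.11, 0.04 and -0.19, and no young library correlated best with the old library of its number. Over all listed peaks calls were 3643 lower and 426 higher with equal library sizes (89.5% lower) and 55 and 1088 with TMM (4.81% lower). Log2 fold changes turned from below to above 0 with TMM at Dkk3 intron 4 (0.08), the Sfrp2 promoter (0.07), the Wnt2b promoter (0.07) and distal peak (0.04), the Wnt5a 1.98 kb peak (0.10) and Wnt7b intron 3 (0.04). With DESeq2 size factors the same peaks had 0.07, 0.06, 0.07, 0.03, 0.09 and 0.03, and with column totals Dkk3, Sfrp2 and Wnt2b promoter peaks had 0.00 and Wnt5a 0.03. For H3K27me3, 3 members were called higher when any peak of a gene counted, against 0. After centring on all genes, 12 instead of 26 members were lower in H3K4me3 and 0 instead of 2 in Pol2, and 1 Pol2 member was called at an FDR of 0.01. The other counts stayed within 1.5 times. ChIP-seq and RNA tables hold no library values, so no library could be left out. TMM, column totals and DESeq2's own size factors were all computed from the listed peaks, of which 6745 of 7849 had lower means in old cells with equal library sizes. Such scaling recentres a fall that most listed peaks share, and the median log2 fold change of all listed peaks was -0.64 with equal library sizes and -0.05 with TMM. Without sequencing depths these values cannot decide which scale is right.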

Other observations

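Wnt5a held 71 of the 182 H3K27me3 peaks assigned to members, spread over introns and distal sequence, and Wnt7a 14. Wif1 had 12 H3K27me3 peaks without one within 1 kb of its start. The strongest of these lay 1.10 kb from the start over 5.30 kb, with a level of 8.92 in young and 8.64 in old cells in the authors' deposited table (FDR 0.579). Dkk4, with no promoter peak, had 3 distal H3K27me3 peaks in the authors' deposited table, of which the strongest had 8.25 in young and 8.43 in old cells (FDR 0.721). Sfrp1, which had no H3K27me3 within 1 kb of its start, had 5 weak distal peaks and none called. Its further Pol2 peaks, 34.2 kb and 73.9 kb from the start, had -1.97 (FDR 0.015) and -2.38 (FDR 0.00579) in the authors' deposited table, close to its promoter value of -2.22.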
